A study of Mus musculus with 12 samples.

Results

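The genes described here are 60 genes of mitosis, the spindle and the kinetochore, taken by name from the deposited gene tables of an RNA-seq experiment in C2C12 cells. They are 60 of the 10289 genes with a row in any of the 3 tables. C2C12 is a mouse myoblast line that divides in serum-rich growth medium (GM) and fuses into myotubes after serum withdrawal. Stable lines carried mouse METTL3 or METTL14, both subunits of the RNA m6A methyltransferase, or GFP as the negative control, each delivered by a lentiviral vector with a CMV promoter and a puromycin marker. The 4 groups, of 2 libraries each, were the GFP line in GM, the GFP line on day 4 of differentiation (D4), the METTL3 line in GM and the METTL14 line in GM. All groups therefore carried the viral vector, and nothing in the sources used here says that the 2 libraries of a group came from separate cultures. The titles place the METTL14-overexpressing libraries on day 0, whereas their time point field gives day 4. The title was used, and the paper also describes the METTL14-overexpressing cells of this comparison as being in GM.

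Each table belongs to 1 comparison: GFP-overexpressing cells at D4 against GM, METTL3-overexpressing against GFP-overexpressing cells in GM, and METTL14-overexpressing against GFP-overexpressing cells in GM. Per gene, the measurement used here was the authors' mean normalised read count, which pools libraries of different groups. It carries no value per library, so no standard deviation, no test and no direction of change can be given. Sequencing depth cannot be read from it either. The mean was the same in every table that lists a gene, with a largest relative difference of 4.77e-10 over 1746 genes found in more than 1 table. In these bulk samples, fewer dividing cells and less RNA per cell cannot be told apart. Among muscle lineage markers, all 6 had a row (Myod1, Myf5, Des, Myog, Mymk and Cdh15), as did the fibroblast genes Col1a1, Pdgfra and Twist2. Of the endothelial markers Pecam1 and Cdh5 and the macrophage markers Ptprc and Adgre1, none had a row. A row means that a gene met the authors' limit on the false discovery rate in a comparison. A missing row is therefore not evidence that its RNA was absent. Mettl3 had a row in the METTL3 table and not in the other 2, and Mettl14 had a row in the METTL14 and D4 tables.

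Entry into mitosis is driven by CDK1 with its cyclins, helped by CDC25 phosphatases and the Polo and Aurora kinases. Kinetochores assemble on centromeric chromatin and bind spindle microtubules, while the spindle checkpoint holds back the anaphase-promoting complex until every chromosome is attached. Many of these genes are transcribed together late in the cell cycle, and MuvB-containing complexes bind their promoters at the cell cycle genes homology region (CHR). In skeletal muscle, myoblasts leave the cell cycle before they fuse, and myotube nuclei do not divide.

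Because the CHR is the promoter element best known for this class of gene, its letters were looked up in the RefSeq promoter windows of the members (250 bases before to 50 after the annotated start, GRCm38.p6). TTTGAA and TTCGAA were searched on both strands. TTCGAA reads the same on either strand, and TTTGAA on the other strand appears as TTCAAA. For a selection of roles, the gene with the highest level among those with a match within 100 bases before to 50 after the start is shown, together with Cdk1 and Ccnb2, which encode the mitotic kinase and a B-type cyclin partner. Each line gives 30 bases, 5′ to 3′ on the strand of the gene, with the CHR letters in capitals.

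Cdk1, chr10:69352910-69352939, minus strand: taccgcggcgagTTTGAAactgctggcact
Ccnb2, chr9:70421533-70421562, minus strand: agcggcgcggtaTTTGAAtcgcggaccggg
Plk1, chr7:122159453-122159482, plus strand: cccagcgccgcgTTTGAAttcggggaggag
Cdc20, chr4:118437344-118437373, minus strand: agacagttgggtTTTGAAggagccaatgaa
Spc25, chr2:69206172-69206201, minus strand: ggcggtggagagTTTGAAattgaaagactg
Kif18b, chr11:102925104-102925133, minus strand: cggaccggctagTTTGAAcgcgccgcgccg
Racgap1, chr15:99651634-99651663, minus strand: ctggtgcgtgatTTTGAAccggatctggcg
Top2a, chr11:99024195-99024224, minus strand: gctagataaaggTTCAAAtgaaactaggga

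In 7 of these 8 stretches the letters read TTTGAA on the strand of the gene, and in Top2a they lie on the other strand. Counting the annotated start as position 0, the first base of the match lay at -15 in Cdk1, 4 in Ccnb2, 30 in Plk1, -18 in Cdc20, 24 in Spc25, 3 in Kif18b, 5 in Racgap1 and -23 in Top2a. Short runs of letters occur in many promoters, so the shares of all members below are set beside the share of all genes with a window.

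The CHR letters were found in 39 of the 50 members with a promoter window, or 78%. The corresponding share was 21.7% of all 27025 genes with a window and 16.9% of the 7249 genes of the D4 table with one. Within 100 bases before to 50 after the start, 36 of 50 members held them, or 72%, beside 9.87% of all genes and 7.13% of D4 table genes. No match was found in the windows of Birc5, Ccnb1, Cenpe, Cenpi, Cenpk, Mad2l1, Mybl2, Ncaph, Nek2, Nuf2 and Pttg1. In Kif14, Kif2c and Ncapd2 the match lay farther from the start. The promoter table used here gave no entry for Foxm1, Cdc25c, Smc4, Kif20a, Ccna2, Tpx2, Aurkb, Incenp, Dlgap5 and Spc24.

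**Figure D1:**
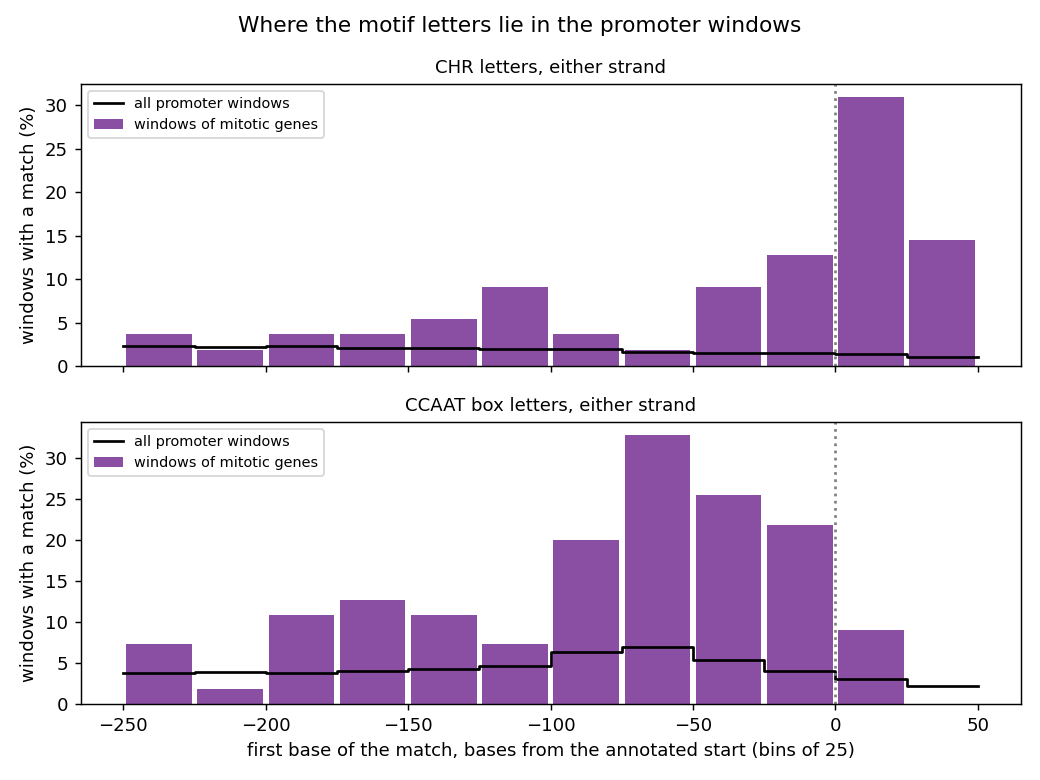
Share of promoter windows (%, y axis) with the first base of a match in each bin of 25 bases, against distance from the annotated start in bases (x axis), for the CHR letters (upper panel) and the CCAAT box (lower panel). Bars are the 55 windows of the mitotic genes and the line is all 32851 windows. The highest CHR bar, 0 to 25 bases after the start, holds 30.9% of the mitotic gene windows against 1.43% of all windows.

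The plot of match positions shows that the member CHR matches gathered around the start. The 56 matches ran from -234 to 40 with a median of -16, and 41 of them lay between 100 bases before and 50 after the start. Matches of both elements were counted per window, so overlapping windows of Bub3, Ect2 and Prc1 count the same sites more than once. The CCAAT box, which is bound by NF-Y and often stands upstream of a CHR, was searched as CCAAT on both strands. It was found in 38 of 50 members (76%) and in 41.1% of all genes, with a median position of -67.5 over 90 matches. Its fullest bin, 75 to 50 bases before the start, held 32.7% of member windows and 6.99% of all windows. Both elements were present in 33 of 50 members (66%), against 8.61% of all genes. In 30 of the 36 windows with both, the CCAAT box nearest to the CHR match closest to the start lay upstream of that match, at a median distance of 35 bases (range 9 to 153). No share over all promoters was computed for this spacing. A match is a description of letters and not of binding, which was not measured.

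Across roles, the CHR letters were in 10 of 10 kinesin genes, 5 of 5 spindle and cytokinesis genes, 5 of 6 checkpoint genes, 7 of 9 chromosome structure genes, 5 of 7 entry kinases and cyclins, 6 of 10 centromere and kinetochore genes and 1 of 2 passenger complex genes. Mybl2, the only transcription factor with a window, had none. In 5 other lists of division genes together, 22 of 59 genes held the letters (37.3%), and 13 held them near the start (22.0%). The 39 members with the letters had a median level of 191 mean normalised counts per kb of exon, and the 11 without had 142, with wide overlap (34.8 to 649.6 and 27.4 to 369).

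**Figure D2:**
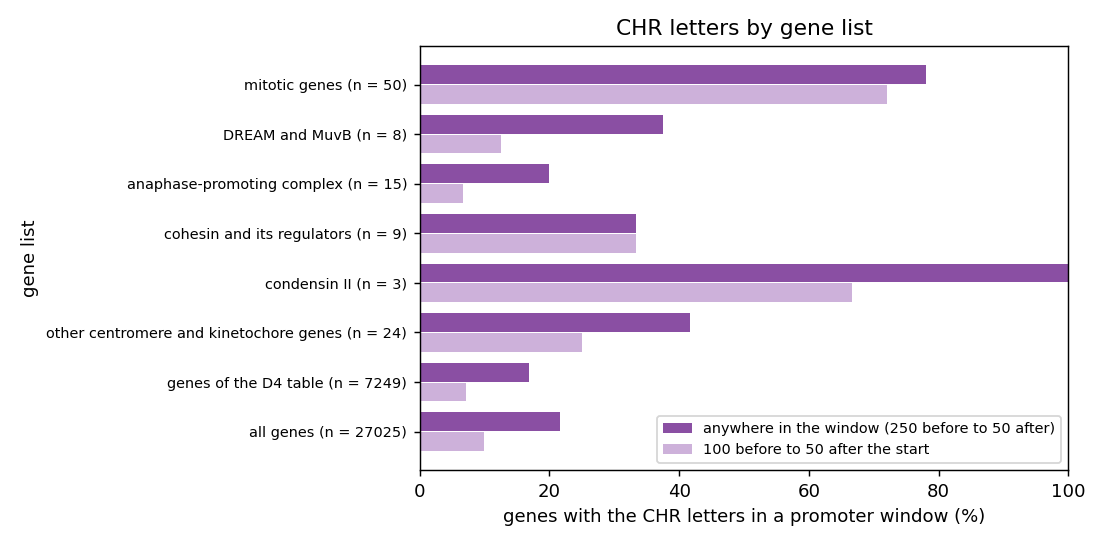
Share of genes (%, x axis) with the CHR letters in a promoter window, by gene list (y axis, with the number of genes that have a window). Dark bars count the whole window and light bars 100 bases before to 50 after the start. The mitotic genes reach 78% and 72%, and all genes 21.7% and 9.87%.

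The first comparison asked which genes change when myoblasts differentiate. All 60 members had a row in the D4 table, beside 95.5% of all genes with a row in any table. The D4 table itself supplies 9823 of those 10289 genes. The background share is therefore high by construction, and it cannot show whether a row there is particular to these genes. Of the 22028 protein-coding genes of the annotation, 40.0% had a row there. That background counts every annotated gene, whether or not its RNA was present in these cells. The share among genes the authors tested is not known. A row means that the gene met the authors' own limit on the false discovery rate, and the direction and size of its change are not given here.

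The other comparisons asked what overexpression of each methyltransferase subunit changes in growing myoblasts. None of the 60 members had a row in the METTL3 table, which holds 17.0% of all genes with a row in any table. None had a row in the METTL14 table either, where that share was 10.7%. Genes outside the D4 table enter this background only through these 2 tables, so both shares depend on how it was built. Of the protein-coding genes of the annotation, 7.78% had a row in the METTL3 table and 4.90% in the METTL14 table. Missing a row says that a gene did not meet the authors' limit with 2 libraries per group, and it gives neither the size of a change nor evidence that there was none. Members with high counts were missing as well, among them Top2a, the topoisomerase that untangles sister chromatids, with a mean normalised count of 5855, and Mki67, the proliferation marker that coats mitotic chromosomes, with 5812. As both tables share the GFP-overexpressing GM libraries, they are not independent of each other.

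Genes of 5 other lists of the division machinery were looked up in the same way. Of their 69 genes, 62 had a row, 61 of them in the D4 table, 5 in the METTL3 table and 3 in the METTL14 table. Of all genes with a row, 95.5%, 17.0% and 10.7% were in these tables, and no list was tested against those shares. The 5 were Rbl2, which encodes the pocket protein p130 of the DREAM complex, Anapc10 and Fzr1, a subunit and an activator of the anaphase-promoting complex, Ncapg2 of condensin II and the kinetochore gene Zwint. Of these, Anapc10, Ncapg2 and Zwint were in the METTL14 table too. Of the 11 genes of cohesin and its regulators, 9 had a row, all in the D4 table and none in the other 2. The other centromere and kinetochore genes had 28 of 28 in the D4 table and only Zwint in each of the others. Condensin II had all 3 genes in the D4 table, and its level ran from 81.3 per kb for Ncapd3 to 524 for Ncaph2.

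**Figure D3:**
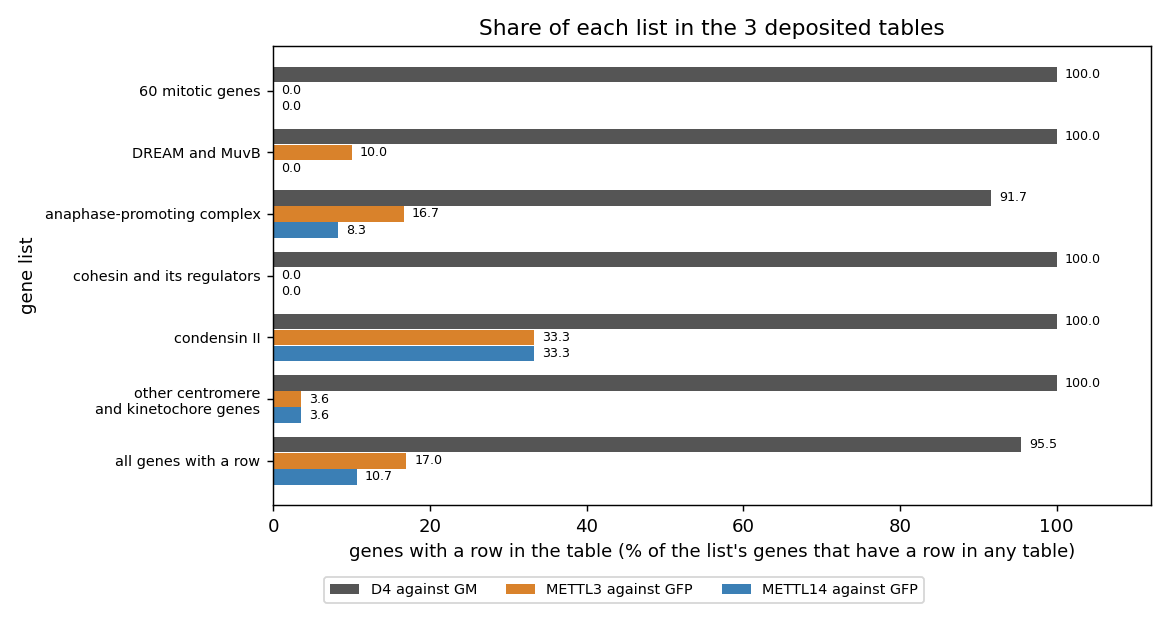
Share of each gene list with a row in each of the 3 tables (%, x axis; the denominator is the list's genes with a row in any table), by gene list (y axis). The bars of the mitotic genes stand at 100% for D4 against GM and at 0 for METTL3 and METTL14 against GFP, where all genes stand at 95.5%, 17.0% and 10.7%.

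To compare genes with each other, the mean normalised count was divided by the exon length of the gene in kb, and this value is called the level. The members had a median level of 186 (quartiles 130 and 335), against 99.6 for all genes with a row (quartiles 27.5 and 253). Of the 60 members, 51 were above the median of all genes. Only Cenpk lay below the percentile of 25 of all genes, and Smc4, Top2a, Ccna2, Cdc20 and Mki67 lay above the percentile of 90. Together the members held 0.576% of the summed mean counts. Levels spanned 25.5-fold, from 27.4 for Cenpk to 700.2 for Smc4. Both ends depend on the length used. By the longest transcript in place of merged exons, Top2a stands above Smc4 and Kif14 below Cenpk. No spread over libraries can be given, so neighbours in this order were not told apart.

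**Figure D4:**
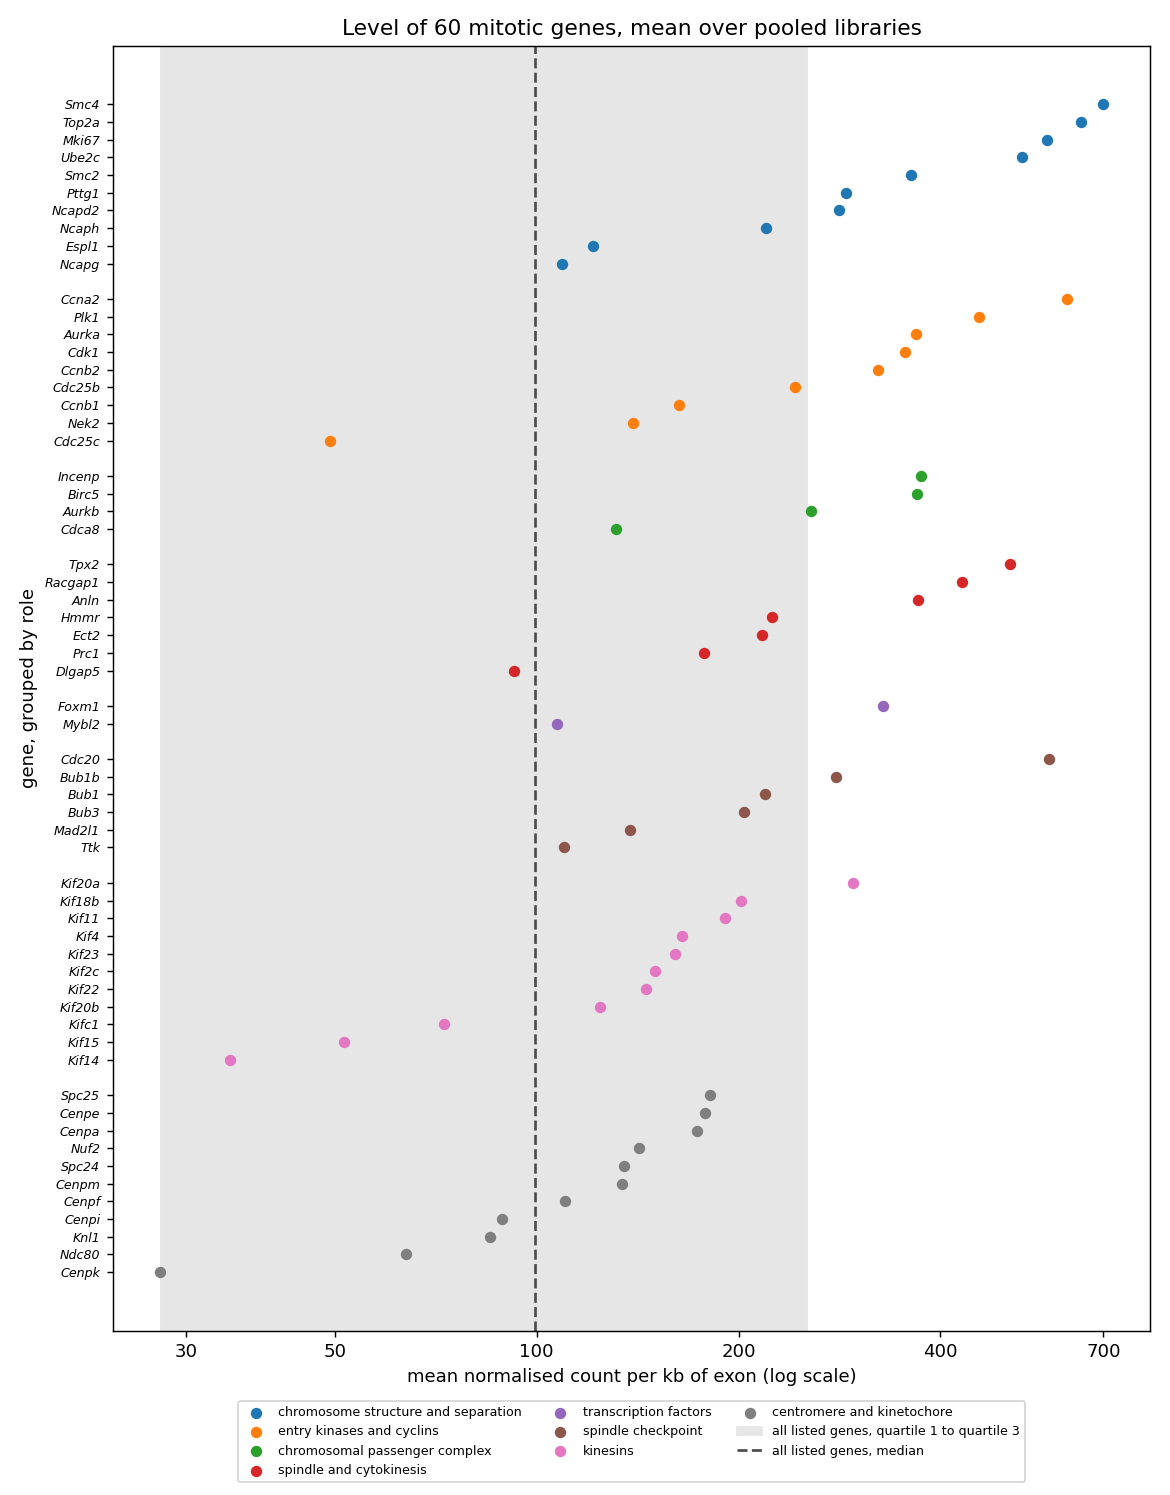
Level of each of the 60 genes (mean normalised count per kb of exon, logarithmic x axis), grouped and coloured by role (y axis). Each point is the authors' mean over pooled libraries, without an error, and the grey band and dashed line give the quartiles (27.5 to 253) and median (99.6) of all genes with a row. Points run from Cenpk at 27.4 to Smc4 at 700.2.

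Among the entry kinases and cyclins the median level was 323, and 8 of 9 genes were above the median of all genes. Ccna2, the cyclin of S phase and early mitosis, was highest at 618 per kb (mean normalised count 2521). The Polo kinase gene Plk1 stood at 456 and the spindle pole kinase gene Aurka at 368. By the longest transcript, Aurka stands above Plk1. Cdk1 (chromosome 10, 69335146 to 69352938, minus strand, GRCm38) had a mean normalised count of 1749 and a level of 355. Its B-type cyclins had levels of 323 for Ccnb2 and 163 for Ccnb1. This gap depends on the length used. The merged exons of Ccnb1 span 4217 bases and its longest transcript 2489, whereas both lengths are 1531 for Ccnb2. The phosphatase genes that remove inhibitory phosphates from CDK1 were further apart, at 243 for Cdc25b and 49.1 for Cdc25c. Nek2, a kinase of centrosome separation, stood at 139.

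Both transcription factor genes of the set act on the late cell cycle program. The level of Foxm1 was 328 (mean normalised count 1889) and that of Mybl2, which encodes B-MYB, was 107.

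All 6 checkpoint genes were above the median of all genes, with a median level of 212. Cdc20, which encodes the activator of the anaphase-promoting complex that the checkpoint inhibits, was the highest at 580.4 per kb. The other members of the inhibitory complex had lower levels, with 280 for Bub1b, which encodes BUBR1, 204 for Bub3 and 138 for Mad2l1. The kinase genes Bub1 and Ttk, which encodes MPS1, stood at 219 and 109.7.

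The centromere and kinetochore genes had the lowest median of any role, 134, and 7 of 11 were above the median of all genes. Cenpa, the histone H3 variant that marks centromeres, stood at 174. Of the constitutive centromere proteins that sit on this chromatin, Cenpm had a level of 134, Cenpi 88.8 and Cenpk 27.4. The microtubule motor gene Cenpe stood at 179 and the large outer kinetochore gene Cenpf at 110.1, from mean normalised counts of 1539 and 1699. Knl1, the scaffold on which the BUB proteins load, stood at 85.2. The 4 genes of the Ndc80 complex, the main microtubule anchor, spanned 2.84-fold, with 181 for Spc25, 142 for Nuf2, 135 for Spc24 and 63.9 for Ndc80.

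The chromosomal passenger complex corrects faulty attachments through Aurora B, and its 4 genes spanned 2.85-fold. Its scaffold gene Incenp stood at 375 and Birc5, which encodes survivin, at 369. Aurkb, the kinase gene, had a level of 256 and Cdca8, which encodes borealin, of 131. By the longest transcript the span was 2.32-fold, and Aurkb stands above Birc5.

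Of the 11 kinesin genes, 8 were above the median of all genes, and their median level was 150.1. Kif20a, a motor of the central spindle, was highest at 297, followed by Kif18b at 201 and Kif11, the motor that pushes spindle poles apart, at 191. By the longest transcript, Kif23 stands above Kif20a. Levels between 124 and 164 were found for the chromokinesin genes Kif4 (164) and Kif22 (145), the microtubule depolymerase gene Kif2c (150.1), Kif23 (161) and Kif20b (124). The lowest were Kifc1, a minus-end-directed motor, at 72.7, Kif15 at 51.7 and Kif14 at 34.8. Kif15 and Kif14 have long merged exons, 11020 and 10358 bases, and their mean normalised counts were 569 and 361.

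The spindle and cytokinesis genes had a median of 224. The spindle assembly factor gene Tpx2 led with 507, followed by Racgap1 at 430.4 and Anln, which encodes the contractile ring protein anillin, at 370.0. By the longest transcript, Anln and Racgap1 stand above Tpx2. Hmmr, a spindle-associated protein gene, stood at 224, the RhoA activator gene Ect2 at 217, the microtubule bundler gene Prc1 at 178 and Dlgap5 at 92.6. Racgap1 and Kif23 encode the partners of centralspindlin, and their levels differed 2.67-fold by merged exons and 1.82-fold by the longest transcript.

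All 10 genes of chromosome structure and separation were above the median of all genes, with a median level of 326. Smc4, an ATPase subunit of both condensins (chromosome 3, 69004738 to 69034623, plus strand, GRCm38), had the highest level of all members by merged exons, 700.2. It was followed by Top2a at 649.6 and Mki67 at 578. Ube2c, the ubiquitin-conjugating enzyme of the anaphase-promoting complex, stood at 529, the securin gene Pttg1 at 289 and the separase gene Espl1 at 121. The 5 condensin I genes spanned 6.43-fold, the widest of the 4 complexes examined, with 362 for Smc2, 282 for Ncapd2, 219.8 for Ncaph and 109 for Ncapg below Smc4. By the longest transcript the condensin I genes spanned 4.36-fold. Smc2 and Smc4 also serve condensin II. By merged exons, the 3 subunits particular to condensin I were the lowest of the 5. This order depends on the length used, as Ncapd2 stands above Smc2 by the longest transcript.

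Some members share sequence with neighbours, and it is not stated whether the authors counted by strand. Exons of 14 members overlap a gene on the opposite strand, and in 7 the overlap exceeds 10% of the exon bases: Kif20a, Ube2c, Kif4, Ncapg, Cdc25c, Ccna2 and Prc1. Reads of these genes and their partners cannot be told apart without strand. The widest overlaps were those of Kif20a with Cdc23, which encodes a subunit of the anaphase-promoting complex (29.3%), and of Ube2c with Tnnc2, the fast troponin C gene of muscle (22.8%). Tnnc2 had a mean normalised count of 105.4 against 1376 for Ube2c. How reads of the 592 shared bases were assigned is not stated. These counts therefore do not show how much RNA of each gene lay there. Processed copies named Kif22-ps, Ccnb1-ps, Ccnb2-ps and Kif4-ps are annotated, and none had a row.

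The annotation also gives the neighbours of each start. An opposite-strand gene began within 1000 bases upstream of 16 of 60 members (26.7%), against 10.8% of the 22028 protein-coding genes. For 7 of them the neighbour codes for protein (11.7% against 6.77%): Cstf1 for Aurka, Rhno1 for Foxm1, Nudcd2 for Hmmr, 1110059G10Rik for Kif15, Brd8 for Kif20a, Mrpl51 for Ncapd2 and Ift80 for Smc4. Among these protein-coding neighbours the closest were Brd8, 12 bases from Kif20a, and 1110059G10Rik, 46 bases from Kif15. These positions come from the annotation alone and were not tested.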

How the data were processed

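RNA-seq of C2C12 cells in 4 groups of 2 libraries was used. The 4 MeRIP-seq libraries, 1 per kind, were not used here. The authors aligned reads to GRCm38 with hisat2, counted them with featureCounts on Ensembl annotation 102, ran DESeq2 and kept genes at a false discovery rate of 0.05. Program versions are not given in the sources used here. The mean normalised count deposited by the authors is a signal averaged over libraries, and which libraries entered it is not stated. The log2 fold change, its standard error, the statistic and both p-values in the deposited tables are the authors' own comparisons and were not used, nor was an unheaded value in 2 tables. The tables hold 0 columns of values per library, so depth and precision per library cannot be read from them and no test was run.

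Groups came from the sample titles. Levels are mean counts divided by the length of merged exons in GENCODE M21 (GRCm38, the same build), which held 10285 of 10289 identifiers. Promoters are RefSeq windows (GRCm38.p6), found for 50 of 60 members. The sequences printed are a selection, and 1 sequence that could have been among them is not reported here. All 60 members were named, by role, and their levels and listing were counted beside all genes with a row. The members and lists were chosen with earlier results of these data known. The CCAAT search, the motif positions and the choice of printed sequences were added after the CHR counts were seen. Alternatives were other backgrounds, transcript length, minimum counts of 10 and 100, stricter motifs, a nearer window and stricter neighbours. The functions were tested on simulated data. Python 3.11.15, pandas 2.3.3, NumPy 2.4.6 and matplotlib 3.10.9 were used.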

Additional observations from a re-analysis of the deposited data

How the results depend on the processing

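With no value per library, leaving out a replicate could not be run. No paired analysis was possible because the tables hold no value per library and no result comes from a test. Of 29 recomputed values, 23 stayed within 1.5 times the value reported, among them the counts of members in each table and of members with the CHR letters. Against all protein-coding genes of the annotation, a background chosen after seeing the data, the shares listed were 40.0% in the D4 table, 7.78% in the METTL3 table and 4.90% in the METTL14 table. Dividing by the longest transcript in place of merged exons raised the median level of the members to 289.5 per kb, and 53 were then above the median of all genes. It also changed the order of members. Against the median of protein-coding genes with a row in any table, 47 members were above. With a mean normalised count of at least 10 required, the number was 47 as well. The lengths of a gene's merged exons grow with rare transcripts, so levels per kb depend on the annotation. Near the start, the share of all genes with the CHR letters was 9.87%. Counting only protein-coding neighbours left 7 members with a divergent gene.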
